A study of Caenorhabditis elegans with 12 samples.

Results

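The 10 genes described here encode basic leucine zipper (bZIP) transcription factors of *C. elegans*: *zip-2*, *zip-3*, *zip-5*, *zip-7*, *zip-8*, *zip-10*, *atf-2*, *atf-4*, *atf-7* and *ces-2*. They were chosen by symbol, with earlier results of these data known, and all 10 were found among the 19997 genes of the deposited tables. Messenger RNA of whole hermaphrodites was sequenced in 12 samples of 5 groups. On day 1 of adulthood there were 3 samples of *eri-1(mg366)* animals, a background with enhanced RNAi that is called WT below, and 3 samples of *daf-2(e1370)* animals with the same *eri-1(mg366)* allele. The *daf-2(e1370)* allele reduces insulin/IGF-like signaling and makes animals long-lived. The labels name control RNAi bacteria for the *daf-2* samples only, so genotype and bacteria cannot be told apart from the labels. The other 6 samples were of *glp-4(bn2)* animals, with 2 from each of day 1, day 3 and day 7, used in the study to follow aging in the soma. The *glp-4(bn2)* allele is temperature-sensitive and leaves animals without most of their germline when they are raised warm. The labels give a larval temperature of 15 °C and an adult temperature of 20 °C for all samples, while the study's methods describe a higher, restrictive larval temperature for *glp-4*. Adults of the study were kept on 50 µM FUDR, which blocks the production of progeny, and each sample pooled at least 80 worms.

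bZIP proteins bind DNA through a basic region and form pairs through the leucine zipper that follows it, so that family members can combine into many dimers. In worms the family covers several responses to stress. ZIP-2 is needed to switch on immune genes when a pathogen or a toxin blocks translation. ATF-7 is the target of the p38 MAP kinase PMK-1 and holds immune genes down until it is phosphorylated. ATF-4 is the worm relative of mammalian ATF4, whose translation rises in the integrated stress response. ZIP-3 counteracts ATFS-1, the activator of the mitochondrial unfolded protein response. ZIP-10 promotes death after severe cold. CES-2 acts in the programmed death of the sisters of a pair of pharyngeal neurons by repressing *ces-1*. ATF-2 is related to mammalian NFIL3. In the study, *atf-2*, *atf-7*, *ces-2*, *zip-7* and *zip-8* were among the factors knocked down in an RNAi lifespan screen.

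Total estimated counts per sample ranged from 13750913 to 22484551 in WT and *daf-2* animals and from 4538353 to 12836836 in *glp-4* animals, with the lowest totals on day 7. The summed level of 8 germline markers was 5217 to 5516 CPM (TMM-normalized counts per 1000000 counts) in WT, 3979 to 4363 CPM in *daf-2*, 427 to 429 CPM in *glp-4* day 1, 486 to 535 CPM in day 3 and 670 to 699 CPM in day 7 samples. Of these 8 markers, 7 were called higher on day 7 than on day 1 of *glp-4*, where 30.6% of all tested genes were. The defining sperm genes *msp-3*, *msp-10* and *msp-142* were at 0 counts on day 1 of *glp-4*, and *msp-10* was also at 0 on day 3. The 4 body muscle markers summed to 15319 to 18180 CPM on day 1 and 967 to 1073 CPM on day 7 of *glp-4*. Of these 4, 3 were called lower on day 7, from -2.82 (*myo-3*) to -4.45 (*unc-54*) on the log2 scale. *hlh-1* was not called (-0.07). The 4 hypodermis markers summed to 3184 to 4086 CPM on day 1 and 103.96 to 108.57 CPM on day 7. Here too 3 were called lower, from -0.65 (*elt-3*) to -7.14 (*dpy-7*), and *nhr-23* was not called (-0.27). Among all tested genes 31.3% were lower on day 7 than on day 1. In such bulk samples, fewer cells of a type and less RNA per cell cannot be told apart. The part of these markers in the values below was not tested.

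Per transcript length, in TPM, the 10 genes covered a wide range. In WT animals the order was *atf-7* (mean of 113 TPM, n = 3), *zip-2* (106), *atf-4* (66.5), *zip-10* (40.6), *zip-5* (28.9) and *zip-3* (25.1), and each of these stood apart from the next without overlap between samples. *ces-2* (2.31 TPM), *zip-8* (2.03), *zip-7* (1.15) and *atf-2* (0.898) formed a low group in which the samples of neighbours overlapped. In *glp-4* animals *zip-2* led on every day, with 505 TPM on day 1, 623 on day 3 and 906 on day 7 (means, n = 2). *atf-4* was second on all 3 days. The third place went from *atf-7* on day 1 and day 3 to *zip-10* on day 7, at 106 TPM. The lowest mean was that of *zip-7* at every age, but on day 1 its samples overlapped with those of *ces-2* and *zip-8*.

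**Figure D1:**
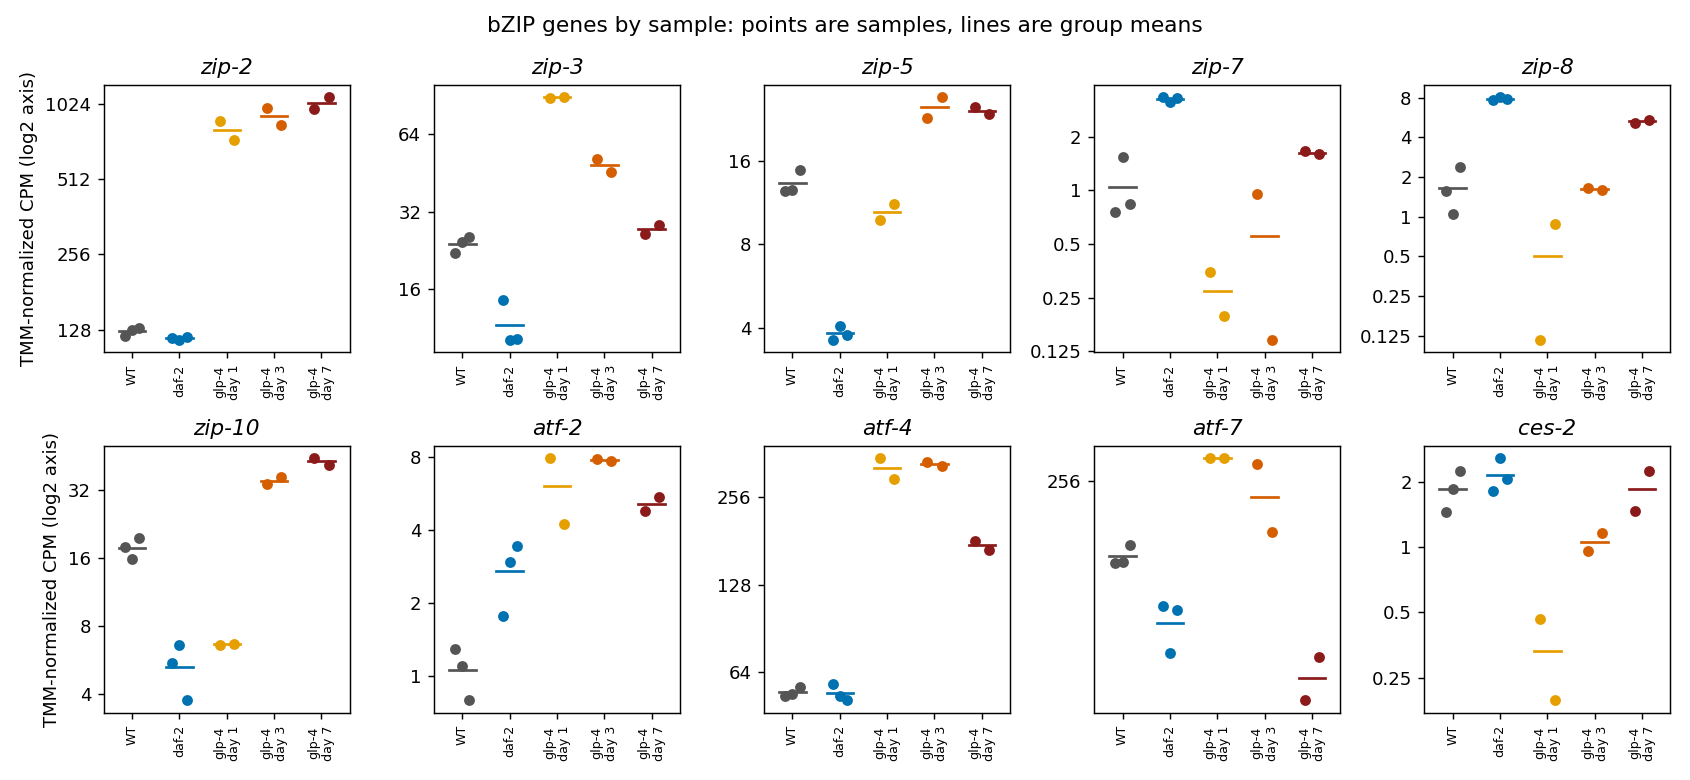
Levels of the 10 bZIP genes in TMM-normalized CPM on a log2 axis, 1 panel a gene. Points are the 12 samples in 5 groups and lines are group means; *zip-5* and *zip-10* share their order of groups up to the place of day 3 and day 7, and *zip-7* and *zip-8* are highest in *daf-2* and lowest on day 1 of *glp-4*.

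Levels were then compared between groups with edgeR's quasi-likelihood test over all genes that passed the filter on low counts, with Benjamini-Hochberg adjustment and a call at an adjusted p under 0.05. Neither labels nor methods say that samples of a group came from separate cultures, so the p-values measure only the spread between these samples. In *daf-2* against WT animals 7 of the 10 genes were called, where 48.0% of all 13528 tested genes were. *zip-8*, *zip-7* and *atf-2* were higher (25.5% of all tested genes were), and *zip-5*, *zip-10*, *zip-3* and *atf-7* were lower (22.5%). All but *atf-7* of these 7 changed at least 2-fold, which 14.8% of all tested genes did. The median size of the log2 fold change was 1.20 over the 10 genes and 0.28 over all tested genes. The samples of both groups did not overlap for 8 of the 10 genes, against 56.4% of all tested genes. The 10 genes, and the lists of other genes used below, were chosen with earlier results known. These shares and medians, and those below, thus describe the chosen genes and do not test the family or a pathway. Among 17 other bZIP genes tested here the median size was 0.17, and none was called with a 2-fold change.

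Between ages of *glp-4* animals, *zip-10* and *zip-5* were higher and *zip-3* was lower on day 3 than on day 1. These 3 calls of 10 stand beside 54.1% called among all 13222 tested genes, 26.6% higher and 27.5% lower. On day 7 against day 1, 9 of 10 were called, where 61.9% of all tested genes were. *zip-8*, *zip-10*, *zip-7*, *ces-2*, *zip-5* and *zip-2* were higher and *zip-3*, *atf-4* and *atf-7* were lower, with 30.6% of all tested genes higher and 31.3% lower. From day 3 to day 7 only *zip-8* was called higher, while *atf-4*, *zip-3* and *atf-7* were called lower. In that comparison 32.6% of all tested genes were called, 14.2% higher and 18.4% lower. The median size of the log2 fold change on day 7 against day 1 was 1.45 over the 10 genes and 0.81 over all genes. Comparisons with day 1 share their day 1 samples, and each is given by its own values. *zip-7* and *ces-2* passed the filter in these samples only through day 7, and *zip-8* only through day 3 and day 7, so they entered the test because they were higher there.

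In *glp-4* animals on day 1 against WT, all 10 genes were called, which 85.4% of the 15610 tested genes were. *zip-2*, *atf-4*, *atf-2*, *zip-3* and *atf-7* were higher, and *ces-2*, *zip-7*, *zip-8*, *zip-10* and *zip-5* were lower, where 45.5% of all tested genes were higher and 40.0% lower. The median size of the log2 fold change was 1.89 over the 10 genes and 1.82 over all genes. Genotype and germline differ together in this comparison, as does larval temperature if it was as the study's methods describe, and they cannot be told apart. Genotype here includes *eri-1(mg366)*, which the study names for WT and not for *glp-4* animals. The study did not compare these groups, and a difference between experiments could not be told apart either. This comparison shares its WT samples with the *daf-2* comparison and its day 1 samples with the comparisons between ages. The median log2 fold change of all genes was 0.28 here, and it moved between -0.53 and 0.63 with other scalings, so the sign of a small change depends on the scaling here.

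**Figure D2:**
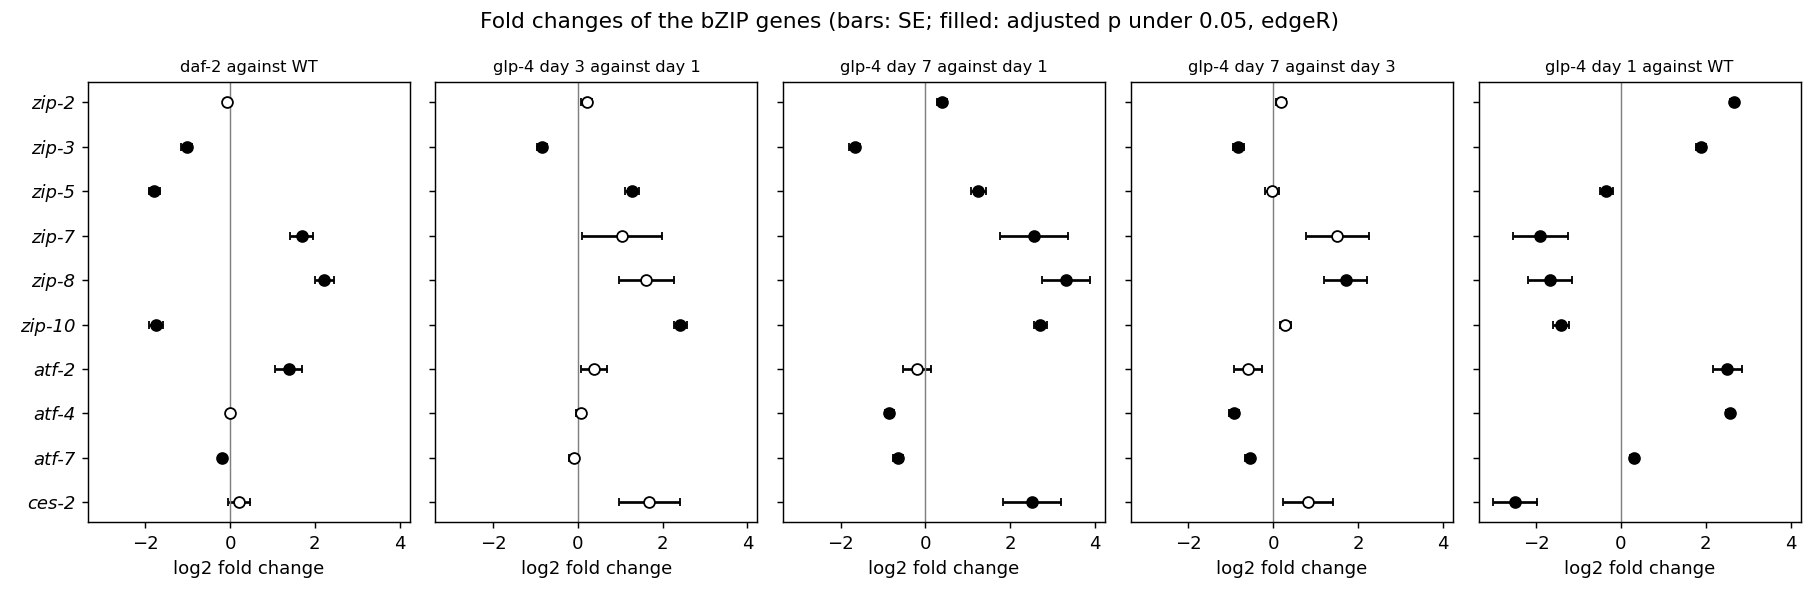
Log2 fold changes of the 10 bZIP genes in the 5 comparisons. Bars are standard errors and filled points have an adjusted p under 0.05 (edgeR); in *daf-2* against WT the changes lie between -1.78 (*zip-5*) and 2.22 (*zip-8*), and the widest bars belong to *zip-7*, *zip-8* and *ces-2* in comparisons with *glp-4* animals, where they have few counts.

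The first role is immunity. *zip-2* (WBGene00019327, chromosome III of WBcel235 from 832982 to 835814, plus strand) stood at 121, 128 and 131 CPM in WT samples and at 118.8, 117.0 and 119.4 CPM in *daf-2* samples. In *glp-4* samples it reached 876 and 732 CPM on day 1, 981 and 840 CPM on day 3, and 971 and 1088 CPM on day 7. Every *glp-4* sample thus lay far above every WT and *daf-2* sample. In *glp-4* day 1 against WT the log2 fold change was 2.67 (SE 0.09, adjusted p = 2.3e-14). The *daf-2* samples lay just below all WT samples in CPM but overlapped with them in TPM, and the log2 fold change of -0.07 (SE 0.04) was not called (adjusted p = 0.18). On day 7 the level was 0.39 above day 1 on the log2 scale (SE 0.12, adjusted p = 0.011). That call was lost without day 1 replicate 2, where the value was 0.25 (adjusted p = 0.060), and without day 7 replicate 2, where it was 0.30 (adjusted p = 0.15). *dos-3* covers 64 exon bases of *zip-2* on the other strand and had 7 to 37 counts. A lincRNA gene, *linc-37*, overlaps exons of *zip-2* on the same strand and was not analysed here. The library kit does not mark strand, so reads from such shared bases cannot be told apart, which holds for *zip-3* and *zip-10* as well.

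The genes around ZIP-2 followed different courses. *irg-1*, an infection response gene whose induction needs ZIP-2, had 0.480 to 1.53 CPM in WT and 43.0 to 62.0 CPM on day 1 of *glp-4*, a change of 5.67 on the log2 scale (SE 0.23, adjusted p = 1.7e-13). It was 1.42 lower on the log2 scale on day 7 than on day 1 (SE 0.17, adjusted p = 6.3e-06), while *zip-2* itself was not lower. *irg-2*, another infection response gene, was higher in *daf-2* than in WT animals with a change of 1.40 on the log2 scale (SE 0.30, adjusted p = 0.0026). It was also 2.83 higher on day 7 than on day 1 of *glp-4* (SE 0.16, adjusted p = 1.8e-09). *cebp-2*, whose product acts with ZIP-2, was not called between ages or in *daf-2* animals.

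*atf-7* (WBGene00000223, chromosome III, 4491627 to 4499045, minus strand) varied least of the 10 genes, with a ratio of 1.60 between its highest and lowest group means. WT samples had 215, 215 and 223 CPM and *daf-2* samples 196, 177 and 194 CPM. *glp-4* samples had 269 and 269 CPM on day 1, 265 and 230 on day 3, and 160 and 176 on day 7. No neighbouring groups overlapped in CPM, and day 7 of *glp-4* was the lowest. In TPM day 7 had the lowest mean too, but neighbouring groups overlapped and WT had the highest mean. It changed on the log2 scale by -0.19 in *daf-2* against WT (SE 0.04, adjusted p = 0.0027), -0.65 on day 7 against day 1 (SE 0.11, adjusted p = 1.2e-04) and -0.56 on day 7 against day 3 (SE 0.11, adjusted p = 0.0012). All 3 calls depended on the scaling. With library totals alone they were -0.06, -0.11 and -0.05, and none was called. The value of 0.30 in *glp-4* day 1 against WT (SE 0.08, adjusted p = 0.0021) was close to the median of 0.28 of all genes in that comparison. It turned to -0.53 with TMM factors from genes outside the germline-dependent set. That set was defined by low values in this same comparison, and the median of all genes moved to -0.53 as well. A gene annotated as protein-coding on the same strand, *C07G2.5*, shares 72 exon bases with *atf-7* and had 0 counts in every sample.

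Of the 7 listed immune genes that PMK-1 and ATF-7 control, all 7 were lower on day 7 than on day 3 of *glp-4*, where 18.4% of all tested genes were, with a median log2 fold change of -3.56 where all genes had 0.01. The intestine, a main site of these immune responses, has 5 markers that summed to 30318 to 37904 CPM on day 1, 64206 to 78228 on day 3 and 33350 to 35800 on day 7. The higher sum on day 3 did not hold for each marker. On day 3 against day 1, *vit-2* (1.69) and *ges-1* (1.04) were higher on the log2 scale. *elt-2* (-0.59), *asp-1* (-2.28) and *ifb-2* (-3.19) were lower. On day 7 against day 3, *ges-1* (-2.16) and *vit-2* (-1.09) were lower and the other 3, *elt-2*, *asp-1* and *ifb-2*, were not called. None of the 5 was at 0 in any group, and their part in the immune genes was not tested. The C-type lectin gene *clec-67* had 466 and 481 CPM on day 1, 68.5 and 83.1 CPM on day 3 and 5.51 and 5.61 CPM on day 7. Its log2 fold change from day 1 to day 7 was -6.37 (SE 0.16, adjusted p = 8.7e-13). From day 1 to day 3, 6 of the 7 immune genes were higher and *clec-67* was lower, beside 26.6% of all tested genes higher and 27.5% lower. *sysm-1* was the highest of them, at 3.14 on the log2 scale (SE 0.12, adjusted p = 4.9e-11). In *daf-2* against WT animals the 7 genes split into 2 higher, 3 lower and 2 not called, where 25.5% of all tested genes were higher and 22.5% lower. *sysm-1* was lower by a change of -2.14 on the log2 scale (SE 0.10, adjusted p = 8.5e-08) and *clec-85* higher by 1.28 (SE 0.09, adjusted p = 2.0e-06). All 7 were higher in *glp-4* day 1 than in WT animals, as were 45.5% of all tested genes. *irg-5* went from 25 to 45 counts in WT samples to 28939 to 31145 counts.

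Of the 5 genes of the kinase cascade above ATF-7, only *pmk-1* itself was called in *daf-2* animals, where 48.0% of all tested genes were. It had 15.9 to 17.5 CPM in WT and 30.1 to 35.8 CPM in *daf-2* samples, a change of 0.99 on the log2 scale (SE 0.09, adjusted p = 8.9e-06). *vhp-1*, which encodes a phosphatase that dampens the cascade, was 1.02 higher on day 7 than on day 1 of *glp-4* (SE 0.11, adjusted p = 1.4e-06). *tir-1*, the adaptor at the top of the cascade, was 0.50 higher (SE 0.11, adjusted p = 0.0016). The kinase genes *nsy-1* (-0.28) and *pmk-1* (-0.37) were lower on day 7, and *sek-1* was not called.

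The second role is the response to stress in translation and in mitochondria. *atf-4* (WBGene00000221, chromosome X, 14809156 to 14810810, minus strand) had 52.9, 53.7 and 56.6 CPM in WT and 58.2, 52.7 and 51.0 CPM in *daf-2* samples. In *glp-4* samples it had 350 and 296 CPM on day 1, 339 and 328 CPM on day 3, and 181 and 169 CPM on day 7. WT and *daf-2* samples overlapped, with a change of 0.01 on the log2 scale (SE 0.06, adjusted p = 0.94), and all *glp-4* samples lay above them. In *glp-4* day 1 against WT it had a change of 2.57 on the log2 scale (SE 0.09, adjusted p = 1.8e-14). From day 1 to day 3 it was 0.07 (SE 0.11, adjusted p = 0.59), and the samples overlapped. From day 3 to day 7 it was -0.92 (SE 0.11, adjusted p = 1.8e-05), with no overlap. An annotated feature on the same strand shares 162 exon bases with *atf-4* and had 0 counts in all samples. A level of messenger RNA does not show how much ATF-4 protein was made, since *ATF4* in mammals is known to be controlled in translation.

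Of 6 listed genes of the integrated stress response, 4 were lower and 2 not called in *daf-2* animals, beside 22.5% lower among all tested genes. The lowest were *cth-2*, which encodes an enzyme that makes cysteine, at -0.72 (SE 0.06, adjusted p = 4.8e-06) and *eif-2alpha*, the initiation factor that the stress kinases phosphorylate, at -0.59 (SE 0.05, adjusted p = 2.7e-06). Of the stress kinase genes, *pek-1* (0.15) and *gcn-2* (-0.10) were not called. *cth-2* was 0.77 higher on day 3 than on day 1 of *glp-4* (SE 0.11, adjusted p = 3.3e-05) and 1.37 lower on the log2 scale on day 7 than on day 3 (SE 0.11, adjusted p = 4.3e-07). *pek-1* was higher on day 7 than on day 1 (0.35, SE 0.11, adjusted p = 0.013), and *gcn-2* (-0.32) and *eif-2alpha* (-0.64) were lower.

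*zip-3* (WBGene00012330, chromosome II, 13951904 to 13957457, minus strand) had 5 groups without overlap between neighbours, in CPM as in TPM, and a ratio of 7.59 between its highest and lowest group means in CPM. WT samples had 22.1, 24.4 and 25.6 CPM and *daf-2* samples 14.5, 10.2 and 10.3 CPM. *glp-4* samples had 88.6 and 89.0 CPM on day 1, 51.3 and 45.6 on day 3, and 26.3 and 28.4 on day 7. The level of *zip-3* was thus lowest in *daf-2* animals and fell with age in *glp-4* animals to a level just above that of WT. Its log2 fold change was -1.02 in *daf-2* against WT (SE 0.13, adjusted p = 7.3e-05), -0.85 on day 3 against day 1 (SE 0.12, adjusted p = 2.7e-05), -1.67 on day 7 against day 1 (SE 0.13, adjusted p = 4.1e-08) and 1.88 in *glp-4* day 1 against WT (SE 0.12, adjusted p = 1.0e-10). The value on day 7 against day 3 was -0.82 (SE 0.13, adjusted p = 2.5e-04), and with library totals alone it was -0.31 and not called (adjusted p = 0.058). *sre-44* shares 30 exon bases with *zip-3* on the other strand and had 1 to 11 counts.

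Of 9 listed genes of the mitochondrial unfolded protein response, 5 were lower and 4 not called in *daf-2* animals, where 22.5% of all tested genes were lower. *hsp-60*, the mitochondrial chaperonin gene, was lower by -0.64 on the log2 scale (SE 0.05, adjusted p = 5.6e-06). In *glp-4* animals 6 of the 9 were lower on day 7 than on day 1 and 3 were not called, beside 31.3% lower among all tested genes. *hsp-60* had 539 and 582 CPM on day 1, 75.6 and 88.5 on day 3, and 113 and 122 on day 7. It was lowest on day 3, with a change of -2.75 on the log2 scale against day 1 (SE 0.12, adjusted p = 1.4e-10), and 0.53 higher on day 7 than on day 3 (SE 0.12, adjusted p = 0.0028). *hsp-6*, which encodes the mitochondrial Hsp70, took the same course with -1.43 and 0.50. *atfs-1*, the gene of the bZIP activator that ZIP-3 counteracts, was 0.37 higher on day 3 than on day 1 (SE 0.11, adjusted p = 0.0086) and 0.80 lower on day 7 than on day 3 (log2 fold change -0.80, SE 0.11, adjusted p = 7.2e-05). The summed muscle and hypodermis markers also went down from day 1 to day 7, by the values given above. On day 3 they stood at 2637 to 3027 CPM and 344 to 351 CPM. The 5 neuron markers summed to 270 to 273 CPM on day 1, 452 to 460 on day 3 and 477 to 501 on day 7. Of these, *snb-1* was called higher and *unc-104* lower on day 7 than on day 1, and 3 were not called. The germline sums rose, and the intestine sums were highest on day 3. The part of these markers in the genes named here was not tested.

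The third role is the cold response of *zip-10* (WBGene00012101, chromosome V, 11650079 to 11650762, minus strand). It had 17.9, 15.9 and 19.5 CPM in WT and 5.53, 6.58 and 3.76 CPM in *daf-2* samples. *glp-4* samples had 6.64 and 6.70 CPM on day 1, 33.8 and 36.4 on day 3, and 44.3 and 41.2 on day 7. No neighbouring groups overlapped in CPM, but the highest *daf-2* sample was just below the lowest *glp-4* day 1 sample. In TPM these groups overlapped, with 9.83 to 17.2 in *daf-2* and 11.63 to 12.035 on day 1 of *glp-4*, and day 1 had the lower mean. The gene was highest in the oldest *glp-4* animals on both scales, with a ratio of 8.07 in CPM between the highest and lowest group means. Its log2 fold change was -1.75 in *daf-2* against WT (SE 0.17, adjusted p = 1.6e-05), 2.42 on day 3 against day 1 (SE 0.16, adjusted p = 1.3e-08), 2.71 on day 7 against day 1 (SE 0.16, adjusted p = 2.7e-09) and -1.42 in *glp-4* day 1 against WT (SE 0.19, adjusted p = 1.8e-06). From day 3 to day 7 the value of 0.29 was not called (SE 0.14, adjusted p = 0.13). It was called with upper-quartile factors (0.41, adjusted p = 0.035), with library totals alone (0.79, adjusted p = 7.3e-04) and in the 3 limma settings on TPM (0.61, adjusted p = 0.0059 to 0.0078). *skp-1*, which overlaps *zip-10* by 12 exon bases on the other strand, had 22.3 to 143 CPM.

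Both protease genes that ZIP-10 is known to induce were lower in *daf-2* animals, where 22.5% of all tested genes were. *asp-17* changed by -1.24 on the log2 scale (SE 0.23, adjusted p = 0.0010) and *cpr-3* by -0.56 (SE 0.11, adjusted p = 0.0015). Both were higher on day 3 than on day 1 of *glp-4*, beside 26.6% of all tested genes, with 0.63 (SE 0.16, adjusted p = 0.0039) and 2.31 (SE 0.11, adjusted p = 3.1e-10). From day 3 to day 7 both were lower, beside 18.4% of all tested genes, while *zip-10* was not. *asp-17* changed by -2.11 (SE 0.19, adjusted p = 1.1e-06) and *cpr-3* by -1.10 (SE 0.10, adjusted p = 1.5e-06). On day 7 against day 1 *cpr-3* was higher (1.21) and *asp-17* lower (-1.47), beside 30.6% and 31.3% of all tested genes. *isy-1*, which acts upstream of *zip-10*, was not called in *daf-2* animals or between ages. In *glp-4* day 1 against WT, 1 of these 3 listed genes was higher, 1 lower and 1 not called, with values from -3.24 to 3.45. There *zip-10* was lower, and 45.5% of all tested genes were higher and 40.0% lower.

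*zip-5* (WBGene00007932, chromosome V, 13264545 to 13269827, plus strand) had 12.5, 12.5 and 14.8 CPM in WT and 3.62, 4.08 and 3.76 CPM in *daf-2* samples. *glp-4* samples had 9.78 and 11.1 CPM on day 1, 22.9 and 27.1 on day 3, and 25.0 and 23.6 on day 7. The *daf-2* samples were the lowest of all and did not overlap with any other group, and the samples of day 3 and day 7 overlapped. The log2 fold change was -1.78 in *daf-2* against WT (SE 0.13, adjusted p = 2.0e-06), 1.28 on day 3 against day 1 (SE 0.17, adjusted p = 2.1e-05) and 1.24 on day 7 against day 1 (SE 0.18, adjusted p = 2.6e-05). In *glp-4* day 1 against WT it was -0.34 (SE 0.15, adjusted p = 0.038), and this call was lost without day 1 replicate 1 (-0.26) or without WT replicate 3 (-0.25). In the deposited TPM values *daf-2* replicate 2 stood at 15.2 TPM beside 8.13 and 9.32 TPM in the other *daf-2* samples, although their CPM were alike. All *daf-2* samples remained below all WT samples in TPM, which had 27.1 to 32.0.

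*atf-2* (WBGene00000220, chromosome II, 8751986 to 8753940, plus strand) had 1.29, 1.10 and 0.793 CPM in WT and 1.76, 2.95 and 3.44 CPM in *daf-2* samples. *glp-4* samples had 7.92 and 4.24 CPM on day 1, 7.80 and 7.69 on day 3, and 4.78 and 5.45 on day 7. In CPM all *daf-2* samples lay above all WT samples and below all *glp-4* samples. In TPM *daf-2* still lay above WT, but *glp-4* day 1 replicate 2 (2.73) was below *daf-2* replicates 2 (2.84) and 3 (3.32). The log2 fold change was 1.38 in *daf-2* against WT (SE 0.32, adjusted p = 0.0042), on 37 to 74 counts against 18 to 24. In *glp-4* day 1 against WT it was 2.51 (SE 0.34, adjusted p = 2.2e-06). No comparison between ages was called for *atf-2*, and both day 1 samples differed from each other more than the group means of the 3 ages did.

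*zip-7* and *zip-8* both had their highest level in *daf-2* animals and their lowest on day 1 of *glp-4*. *zip-8* (WBGene00017755, chromosome III, 6478955 to 6481243, plus strand) had 1.56, 1.04 and 2.38 CPM in WT and 7.72, 8.09 and 7.85 CPM in *daf-2* samples, or 17 to 54 against 129 to 169 counts. In *glp-4* samples it had 0.116 and 0.887 CPM on day 1, 1.64 and 1.60 on day 3, and 5.14 and 5.45 on day 7. The *daf-2* samples were above all others, and day 7 of *glp-4* was above WT. The log2 fold change in *daf-2* against WT was 2.22 (SE 0.23, adjusted p = 2.0e-05), and leaving out any of the 6 samples kept it between 2.00 and 2.59 and called. On day 7 against day 1 of *glp-4* the fitted value was 3.32 (SE 0.57, adjusted p = 1.6e-04), but day 1 held 1 and 9 counts. Without day 1 replicate 2 that value was 5.32 and without replicate 1 it was 2.58. As a ratio of summed counts, 62 on day 7 against 10 on day 1, the level was 9.94-fold higher (95% exact interval 5.06 to 21.7, counting error only). Between ages *zip-8* passed the filter only through day 3 and day 7. Its values against day 1 thus describe these samples and do not test a rise. The value of 1.61 on day 3 against day 1 just missed the call (adjusted p = 0.050). It was called in 7 alternatives that kept all samples, with values from 0.87 in limma on log2(TPM + 1) to 1.69 with upper-quartile factors and adjusted p of 0.024 to 0.049, and without day 1 replicate 2, where it was 3.63. That of 1.71 on day 7 against day 3 (SE 0.50, adjusted p = 0.018) was called. This call was lost with DESeq2 (adjusted p = 0.094), in limma on log2(TPM + 0.1) (2.01, adjusted p = 0.062) and at a threshold of 0.01. It was also lost without any one of the 4 samples of those ages. The call of -1.67 in *glp-4* day 1 against WT was lost without day 1 replicate 1 (-0.94, adjusted p = 0.10).

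*zip-7* (WBGene00013100, chromosome IV, 16502910 to 16505682, minus strand) had 0.753, 1.53 and 0.837 CPM in WT and 3.34, 3.14 and 3.30 CPM in *daf-2* samples. That corresponds to 14 to 25 counts against 50 to 71 counts. In *glp-4* samples it had 0.349 and 0.197 CPM on day 1, 0.958 and 0.145 CPM on day 3, and 1.65 and 1.60 CPM on day 7. The *daf-2* samples were again above all others. In *daf-2* against WT the log2 fold change was 1.69 (SE 0.27, adjusted p = 4.4e-04). On day 1 of *glp-4* there were 3 and 2 counts, at or under the floor of 3 counts, the limit that a count of 0 allows. The ratio of summed counts was 6.09 between day 7 and day 1 (19 against 5 counts, 95% exact interval 2.20 to 20.9), and WT was 3.77-fold above *glp-4* day 1 (interval 1.53 to 12.1). edgeR called both, at adjusted p = 0.013 and 0.012. Between ages *zip-7* passed the filter only through its day 7 samples. The call and interval on day 7 thus describe these samples and do not test a rise. The call on day 7 was lost with DESeq2 (adjusted p = 0.10), without day 1 replicate 2 (0.089), without day 7 replicate 1 (0.075) and without day 7 replicate 2 (0.080). The call against WT was lost without day 1 replicate 2 (adjusted p = 0.10).

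The germline and sperm markers moved along with some of these values. The 4 sperm markers summed to 23.01 to 29.7 CPM in WT and 44.5 to 53.4 CPM in *daf-2*. All 4 sperm markers were called higher in *daf-2*, as were *zip-7* and *zip-8* and 25.5% of all tested genes. The sperm markers summed to 0 to 0.0985 CPM on day 1, 1.51 to 2.32 on day 3 and 6.25 to 9.93 on day 7 of *glp-4*. The 8 germline markers were lower in *daf-2* than in WT for 7 genes, beside 22.5% of all tested genes, the opposite direction to *zip-7* and *zip-8*. The part of germline cells in the levels of *zip-7*, *zip-8* and *ces-2* was not tested.

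The fourth role is programmed cell death. *ces-2* (WBGene00000469, chromosome I, 14961497 to 14965361, plus strand) had 1.45, 1.84 and 2.25 CPM in WT and 1.81, 2.57 and 2.04 CPM in *daf-2* samples. In *glp-4* samples it had 0.466 and 0.197 CPM on day 1, 0.958 and 1.16 on day 3, and 1.47 and 2.24 on day 7. WT and *daf-2* samples overlapped, and the log2 fold change of 0.21 was not called (SE 0.25, adjusted p = 0.52). On day 1 of *glp-4* there were 4 and 2 counts. The ratio of summed counts was 5.88 between day 7 and day 1 (22 against 6 counts, 95% exact interval 2.31 to 17.7), and WT was 5.85-fold above *glp-4* day 1 (interval 2.60 to 16.3). edgeR called both, at adjusted p = 0.0054 and 2.3e-04. Between ages *ces-2* passed the filter only through its day 7 samples. The call and interval on day 7 thus describe these samples and do not test a rise. With DESeq2 the change on day 7 was not called (adjusted p = 0.060). It was also lost without day 1 replicate 2 (adjusted p = 0.071) and without day 7 replicate 2 (adjusted p = 0.11).

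Of the 7 listed genes of the cell death pathway, *ces-1*, the target of CES-2, had at most 5 counts in any sample and entered no test. Of the 6 tested genes, *hlh-2* (0.38) and *hlh-3* (0.89), whose products activate the death gene *egl-1* in the same lineage, were higher in *daf-2* animals and 4 were not called, where 25.5% of all tested genes were higher. *ced-3*, the caspase gene, had 173 to 184 CPM in WT and 2.86 to 5.94 CPM on day 1 of *glp-4*. It was 1.90 higher on the log2 scale on day 7 than on day 1 (SE 0.30, adjusted p = 6.4e-05), and *ced-4*, its activator, was 1.33 higher (SE 0.27, adjusted p = 6.8e-04). *egl-1* had 0 and 2 counts on day 1 and 11 and 17 counts on day 7, and *ced-9*, the inhibitor, was not called between ages. All 6 tested genes of the pathway were lower in *glp-4* day 1 than in WT animals, beside 40.0% lower among all tested genes. All 8 germline markers were lower too, and their part was not tested.

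Of the 19 other listed bZIP genes, 17 were tested in *daf-2* against WT animals, where 5 were higher and 2 lower, beside 25.5% and 22.5% of all tested genes. None of them changed by 2-fold, and the median size of the log2 fold change was 0.17 beside 0.28 over all tested genes. The highest was *zip-1* at 0.51 (SE 0.09, adjusted p = 0.0011), followed by *xbp-1*, the factor of the unfolded protein response of the endoplasmic reticulum, at 0.45 (SE 0.04, adjusted p = 5.5e-06). The lowest was *crh-2* at -0.46 (SE 0.06, adjusted p = 1.7e-04). The antioxidant regulator *skn-1* was not called (-0.07). On day 7 against day 1 of *glp-4*, 6 of the 19 were higher and 7 lower, beside 30.6% and 31.3% of all tested genes. *cebp-1*, known for its part in axon regeneration, was the highest with 2.16 (SE 0.11, adjusted p = 9.2e-10). *fos-1*, the worm Fos, was 0.84 higher (SE 0.10, adjusted p = 6.5e-06) and its partner *jun-1* 0.68 higher (SE 0.12, adjusted p = 1.6e-04). *atf-8* had 53 and 57 counts on day 1, 1 count in each day 3 sample, and 1 and 2 counts on day 7. In *glp-4* day 1 against WT, 16 of the 19 were higher and 2 lower, where 45.5% of all tested genes were higher and 40.0% lower. The 2 lower genes were *zip-4* (-1.52) and *zip-11* (-0.67).

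**Figure D3:**
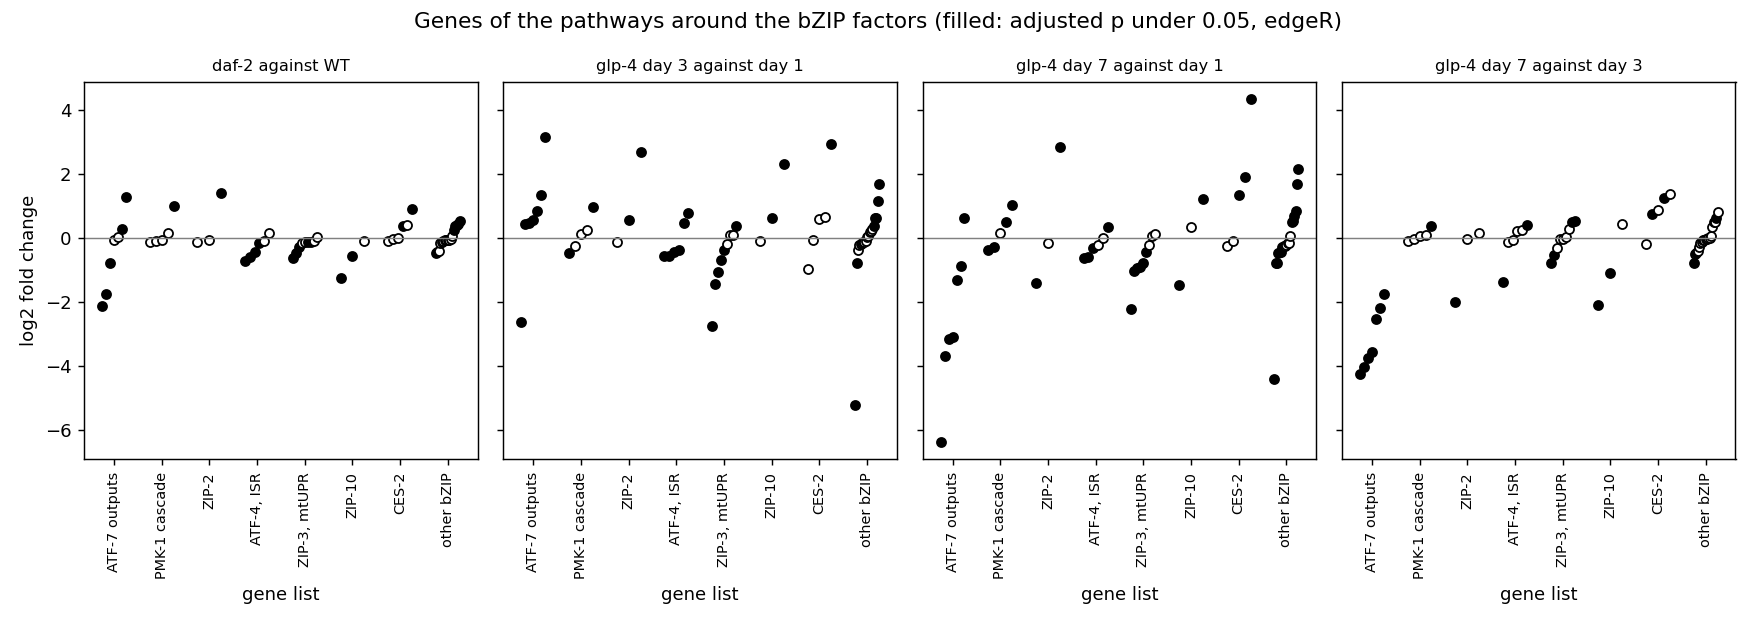
Log2 fold changes of the listed genes around the bZIP factors in 4 comparisons, 1 column a list. Filled points have an adjusted p under 0.05 (edgeR); all 7 genes of the PMK-1 and ATF-7 list lie between -4.25 and -1.74 on day 7 against day 3, and no other bZIP gene reaches 2-fold in *daf-2* against WT.

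The 10 genes were also compared among themselves by Pearson's r of log2(CPM + 1). Since samples fall into groups, r was computed within the 6 WT and *daf-2* samples and within the 6 *glp-4* samples, and it describes mainly how the group means line up. Of 45 pairs, 3 were over 0.8 in both sets of samples: *zip-5* with *zip-10* (0.97 and 0.98), *zip-3* with *atf-7* (0.94 and 0.92) and *zip-7* with *zip-8* (0.88 and 0.83). Another 3 were under -0.8 in both: *zip-3* with *zip-7* (-0.89 and -0.81), *zip-3* with *zip-8* (-0.92 and -0.96) and *zip-8* with *atf-7* (-0.85 and -0.91). The sign differed between the sets in 26 of the 45 pairs, and 3 of these were over 0.8 in one set and under -0.8 in the other. *zip-3* went with *zip-5* and *zip-10* in the *daf-2* comparison (0.94 and 0.93) and against them over the ages (-0.86 and -0.92), and *zip-8* did the reverse with *zip-10* (-0.92 and 0.83). *zip-2* and *atf-4*, with r of 0.95 over all 12 samples, had 0.32 and -0.60 within the sets, and for both genes every *glp-4* sample lay above every other sample.

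**Figure D4:**
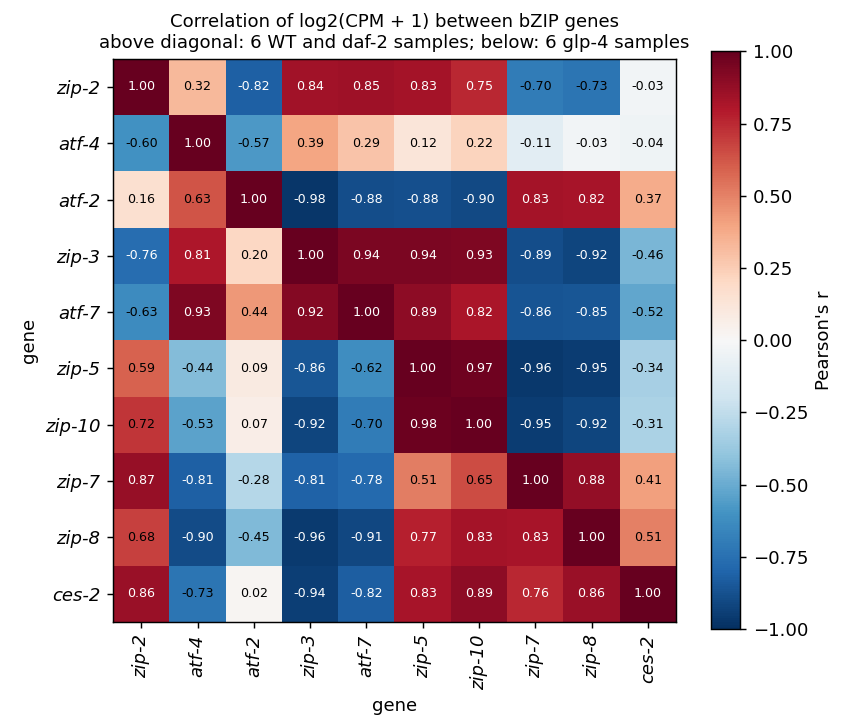
Pearson's r of log2(CPM + 1) between the 10 bZIP genes, above the diagonal over the 6 WT and *daf-2* samples and below it over the 6 *glp-4* samples. Red is positive and blue negative; *zip-5* and *zip-10* are red on both sides (0.97 and 0.98), while *zip-3* and *zip-10* turn from 0.93 to -0.92.

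Over all 12 samples, which share group structure and differ in depth, the genes with the most similar course among 15610 were named for each factor by r. They were *F54D1.6* (r = 0.998) and *pqn-18* (0.998) for *zip-2*, and *R07B7.10* (0.97) and *Y41D4A.4* (0.96) for *atf-7*. For *atf-4* they were *C26B9.5* (0.998) and *F56F10.1* (0.997), and for *zip-3* *R13D7.2* (0.99) and *Y82E9BR.14* (0.99). For *zip-10* they were *F23A7.8* (0.98) and *egrh-1* (0.97), and for *zip-5* *Y57G11C.31* (0.98) and *clec-218* (0.97). *atf-2* was nearest to *C18E9.9* (0.97) and *prk-2* (0.97). They were *mpst-4* (0.95) and *T20F5.5* (0.94) for *zip-7*, *C16D2.1* (0.97) and *nep-1* (0.92) for *zip-8*, and *spe-11* (0.94) and *lem-4* (0.94) for *ces-2*. Of these, *spe-11* is one of the 4 sperm markers used above.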

How the data were processed

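Messenger RNA of 12 samples in 5 groups was analysed, grouped by genotype and age from the labels. The authors ran the Cactus pipeline, and the submitters' processing notes name kallisto, edgeR, DiffBind and the builds ce11 and WBcel235 without giving roles. The deposited estimated counts were rounded to whole numbers and not normalized. The deposited TPM values are per transcript length, with the same total in each sample. A count of 0 beside a TPM above 0 occurs in 305 cells. Symbols were matched for 19957 of 19997 genes, and positions come from Ensembl release 115.

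Counts were tested with edgeR 4.0.16 in R 4.3.3: filterByExpr (minimum count 10, minimum total 15), TMM factors, quasi-likelihood test, Benjamini-Hochberg adjustment over all tested genes and a threshold of 0.05. *daf-2* against WT used those 6 samples, the ages were compared in a joint model of the 6 *glp-4* samples, and *glp-4* day 1 against WT used all 12. CPM levels use TMM factors of all 12 samples. A floor of 3 counts equals 0.133 to 0.661 CPM, and floors and intervals cover counting error only. Intervals of count ratios are exact conditional intervals at a level of 95%. The alternatives were DESeq2 1.42.0, limma 3.58.1 on log2(TPM + 1), with genes kept from a mean TPM of 1 or without that filter, and a pseudocount of 0.1 in its place. Further alternatives were other scalings, no filter, a replicate block, a threshold of 0.01 and leaving out each sample. TMM factors without the 3413 germline-dependent genes (log2 fold change under -2 in *glp-4* day 1 against WT) were chosen after seeing the data. The steps were tested on simulated data.

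The 10 genes and all lists were chosen with earlier results of these data known. All 10 are named, other genes come from the lists, and the 2 genes with the highest r over 12 samples are named for each. Which list members are given with values was decided after seeing them. Protein and promoter sequences were not analysed here.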

Additional observations from a re-analysis of the deposited data

How the results depend on the processing

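In *glp-4* samples *zip-7*, *zip-8* and *ces-2* rest on 8 to 34 counts on day 7 and on 1 to 9 on day 1, although day 1 samples have the larger totals. The median of all genes on day 7 against day 1 was 0.02, and it moved to 0.22 with upper-quartile factors, 0.41 with limma on log2(TPM + 1) and 0.56 with library totals. In *daf-2* against WT it moved to 0.13 with library totals.

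In *daf-2* against WT, *zip-8*, *zip-7*, *atf-2*, *zip-5*, *zip-10* and *zip-3* kept their direction and their call in every alternative run. *atf-4*, not called, took the values -0.0011 with DESeq2-type size factors, -0.0053 with DESeq2 and -0.012 with all samples in the model, and -0.036 to 0.048 with 1 sample left out. *zip-2* was at 0.049 with library totals and at 0.054 in all 3 limma settings. On day 3 against day 1, 4 genes were called higher with upper-quartile factors or with all samples in the model, and 2 to 4 with 1 sample left out, where *atf-2* ranged from -0.0038 to 0.88, *atf-4* from -0.042 to 0.18 and *zip-7* from -0.78 to 1.79. On day 7 against day 1, 3 to 6 genes were called higher with 1 sample left out. *atf-2* turned to 0.0050 with upper-quartile factors, 0.33 with library totals, 0.23 with limma on log2(TPM + 1) with or without the filter and 0.29 on log2(TPM + 0.1), and ranged from -0.61 to 0.30 with 1 sample left out. On day 7 against day 3, the genes called higher were 2 with upper-quartile factors, 5 with library totals, 0 with DESeq2, 3 with limma on log2(TPM + 1), 4 of them without its filter, 2 on log2(TPM + 0.1), 0 at a threshold of 0.01 and 0 to 1 with 1 sample left out. With library totals 1 gene was called lower. *zip-5* turned to 0.079, 0.47, 0.30, 0.30 and 0.30 in the same upper-quartile, library-total and limma settings and to 0.043 with TMM factors without germline-dependent genes, and ranged from -0.18 to 0.086 with 1 sample left out. In *glp-4* day 1 against WT, 3 genes were called lower at a threshold of 0.01 and 3 to 5 with 1 sample left out. *zip-5* turned to 0.013 with upper-quartile factors. *atf-7* turned to -0.031 with library totals, -0.12 in all 3 limma settings and -0.53 with TMM factors without germline-dependent genes. The cause of these moves was not tested. With 1 sample left in an age, that sample was assumed to vary like the others. In *glp-4* animals *zip-7* did not reach the mean TPM of 1 that 2 limma settings require and has no value there.

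Samples of WT and *daf-2* with the same number did not deviate together (r of -0.0156 to 0.0208), and 1 of the 3 WT samples correlated best with its own number. With the replicate number as a block, the genes called were 3 higher and 4 lower in *daf-2* against WT, 3 higher and 1 lower on day 3 and 6 higher and 3 lower on day 7 against day 1, 1 higher and 3 lower on day 7 against day 3, and 5 higher and 4 lower in *glp-4* day 1 against WT.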
